A study of Cricetulus griseus with 9 samples.

Results

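Serine/threonine protein phosphatases remove phosphate from serine and threonine residues. The 50 genes described here code for their catalytic subunits, their regulatory subunits and enzymes that act on the phosphatases themselves. They were chosen by symbol alone, from names beginning with Ppp1 to Ppp6 followed by c or r, Ppm1 or Phlpp, together with Pptc7, Ppme1 and Ptpa, and they are 50 of the 6753 genes in the deposited table. Pptc7 is not among the rows used here, nor are the subunit genes Ppp1cc, Ppp2ca and Ppp2r1a, and Ppp1r15a was left out by the rule. Of the members, 16 were classed as catalytic and 32 as regulatory. The remaining pair, Ppme1 and Ptpa, modify or activate a phosphatase and were kept apart.

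The enzymes of the PPP family (PP1, PP2A, calcineurin, PP4, PP5 and PP6) share a conserved catalytic core and, PP5 apart, act mainly in complexes, where regulatory subunits set location, substrate and activity. A few catalytic subunits are thus spread over many regulatory partners. The metal-dependent PP2C enzymes (among the members, the Ppm1 genes) and the related PHLPP phosphatases act mostly as single chains. In cultured cells these enzymes oppose the kinases of growth factor, stress and cell cycle signalling.

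RNA was sequenced from MI5-4 cells, a Chinese hamster ovary (CHO) line kept in alpha minimum essential medium with glucose and fetal bovine serum. The 9 libraries formed 3 groups of 3. EV cells are described as hexokinase null, WTHK2 cells as expressing wild-type HK2, and LAC cells as EV cells to which sodium lactate was added at 10 mM, kept with it for 24 h. The vector, its promoter, the number of clones and any mock treatment of EV are not described in the sources used here, and nothing states that each replicate was its own culture. The p-values therefore measure only how these libraries vary, which may be technical.

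Values are normalized CPM, in which each read count is divided by an effective library size (18050959 to 26238659 reads) and scaled up. No listed gene had a mean under 20.4 CPM. Member means ran from 24.7 to 550.4 CPM, and no member had fewer than 408 reads in any library. Levels are compared here only between libraries and not between genes, because transcript lengths were not used. Hk2, the gene that WTHK2 cells are labelled as expressing, stood at 68.4, 68.7 and 64.9 CPM in EV, 66.6, 65.3 and 63.9 in WTHK2 and 64.7, 70.4 and 68.5 in LAC, with a log2 fold change in WTHK2 of -0.044 (SE 0.054, adjusted p = 0.522). Hk1 was lower, -0.18 (SE 0.035, adjusted p = 3.64e-04) in WTHK2 and -0.10 (SE 0.035, adjusted p = 0.0277) in LAC, the latter call lost without EV replicate 1 or 2 or LAC replicate 3, or with median rescaling or no variance trend (adjusted p from 0.0593 to 0.208). The deposited values thus do not show a higher Hk2 transcript in the libraries labelled WTHK2, and each direction below rests on the labels. Whether RNA of an introduced HK2 is counted in the Hk2 row was not tested, so these values do not tell whether HK2 was expressed. Of the fixed markers, 5 of 6 mesenchymal genes were listed and 0 of 6 leukocyte and 0 of 5 epithelial genes. The mesenchymal genes summed to 4554 to 4690.3 CPM in EV, 5551 to 5629 in WTHK2 and 4737 to 4902 in LAC. Of these 5 genes, 4 were called higher and 1 lower in WTHK2, and 2 higher and 1 lower in LAC; the lower gene was Fn1 in both (-0.35 and -0.33). The 4 listed mitochondrially encoded transcripts stood above their EV mean by median log2 values of 0.73 and 0.80 in the first replicates of WTHK2 and LAC, and by 0.40 to 0.52 in the other 4 libraries of these groups. Their part, and that of the mesenchymal genes, in the results below was not tested, and counts are also given with those first replicates left out. The libraries labelled WTHK2 are called WTHK2 below.

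Phosphatase transcripts differed from EV by small amounts in both other groups, and more members were lower than higher. In WTHK2 against EV, 7 members were higher and 16 lower at an adjusted p of 0.05 (limma on log2 of CPM plus 1), so 23 of 50 (46.0%) were called beside 46.4% of all genes. The higher members were 14.0% of the 50 beside 21.0% of all genes, and the lower members 32.0% beside 25.4%. In LAC against EV, 5 were higher and 15 lower, so 20 of 50 (40.0%) were called beside 49.5% of all genes. Here the shares were 10.0% beside 22.4% higher and 30.0% beside 27.1% lower. The shares called are thus near or below the background and are no result about the members as a set. Groups did not overlap for 27 members (54.0%) in WTHK2 against EV beside 57.1% of all genes, and for 21 (42.0%) in LAC against EV beside 57.8%. The largest fold of any member was 1.27 in WTHK2 against EV and 1.34 in LAC against EV.

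In counts, the excess of lower members shrank under the other scalings, and in WTHK2 against EV it was gone after median rescaling. In LAC against EV lower members outnumbered higher ones under each scaling. When libraries were rescaled to equal medians, 11 members were higher and 10 lower in WTHK2 against EV, and 9 and 12 in LAC against EV. This rescaling moved the median log2 fold change of all genes up by 0.036 and 0.041 in these comparisons. Over all genes, the share of higher genes among those called moved from 45.3% to 57.3% in WTHK2 against EV. In LAC against EV it moved from 45.3% to 58.6%. Among called members the share of higher ones was then 52.4% and 42.9%, still below that of all genes. Quantile normalization gave 9 higher and 11 lower members in the first comparison and 6 and 13 in the second. Higher members were then 45.0% and 31.6% of those called, beside 51.1% and 53.0% over all genes. The WTHK2 count fell to 13 members without EV replicate 1 and to 11 without EV replicate 2. With replicate 1 of both WTHK2 and LAC left out it was 17 (6 higher, 11 lower), and the LAC count was 16 (4 higher, 12 lower). These were 34.0% and 32.0% of the members, beside 43.6% and 45.2% of all genes. Losses and gains of single calls named below are at the same threshold of 0.05. Both comparisons share the EV libraries, so their values are given side by side and not as independent evidence.

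**Figure D1:**
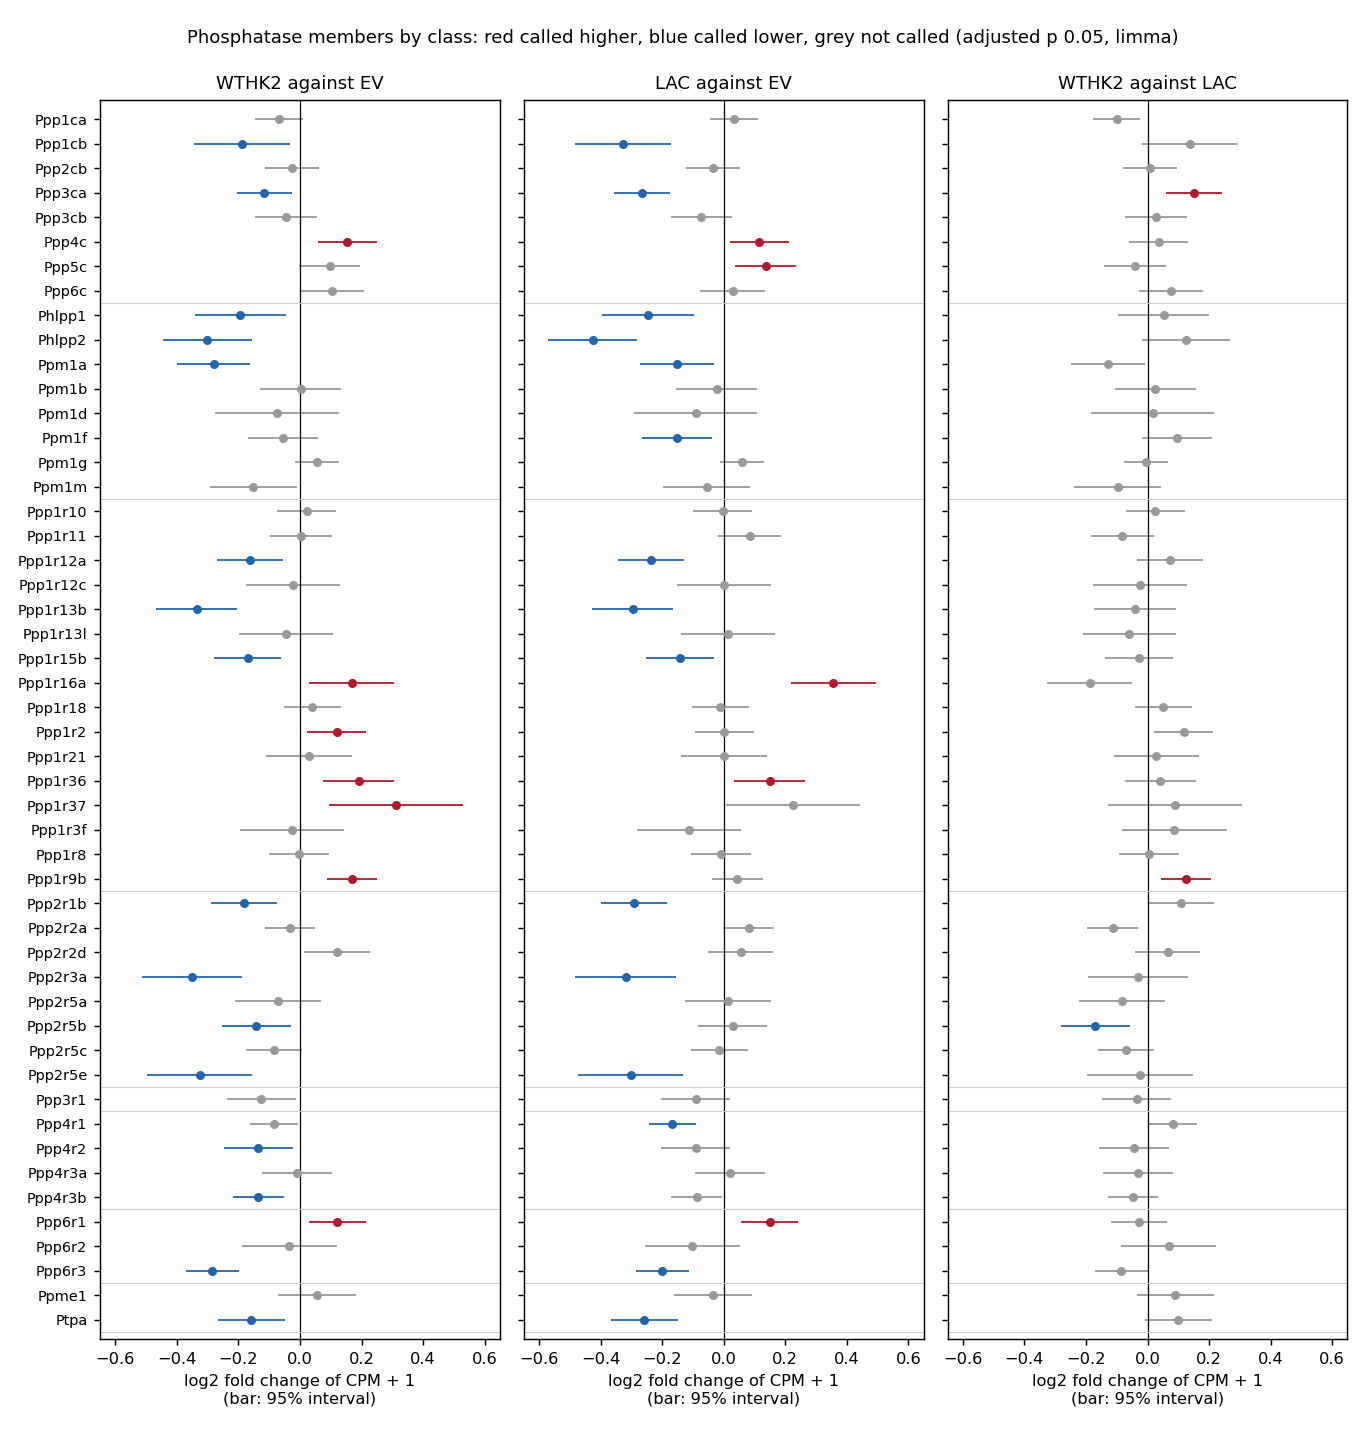
Log2 fold change of CPM plus 1 (horizontal axis) for each of the 50 members (rows, ordered by class) in the 3 comparisons, with bars for the 95% interval from limma. Red points were called higher, blue points lower and grey points were not called; 23, 20 and 3 points are coloured in the 3 panels.

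Catalytic and regulatory subunits were compared by counts and medians. In WTHK2 against EV, 1 of 16 catalytic members was higher and 5 lower, and their log2 fold changes had a median of -0.061. Of the 32 regulatory members 6 were higher and 10 lower. Their median was -0.033. The median of all 6753 genes was -0.0082. The catalytic median was thus 0.027 below the regulatory median, written as a difference of -0.027. The same difference varied between the 3 WTHK2 libraries with an SD of 0.034, and it had the opposite sign without WTHK2 replicate 1 (0.0064). The gap between the classes was thus smaller than the spread between libraries. The counts moved with the scaling: after median rescaling 4 catalytic members were higher and 2 lower, and 7 regulatory members were higher and 8 lower. That rescaling shifts all genes alike and cannot alter a difference of medians. Counts of each class and list, here and below, are to be read against the shares of all genes called given above.

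In LAC against EV, 2 catalytic members were higher and 6 lower (median -0.064), and 3 regulatory members were higher and 8 lower (median -0.0061). These calls covered 50.0% of catalytic and 34.4% of regulatory members, beside 49.5% of all genes. The median of all genes was -0.0035. The difference of the medians was -0.058 with an SD of 0.017 over the LAC libraries, and it kept its sign without any single library (-0.084 to -0.035). Taken in each LAC library against the EV mean, it was -0.054, -0.059 and -0.027 in replicates 1 to 3. The EV libraries gave -0.011, -0.012 and 0.0065, above all 3 LAC values, but about their own mean, which holds them near 0. Taken against the LAC mean instead, the EV libraries gave 0.061, -0.011 and 0.072, and the LAC libraries 0.0088, -0.017 and 0.014. On that reference EV replicate 2 lay inside the LAC range. After median rescaling 3 catalytic members were higher and 4 lower, and 6 regulatory members were higher and 7 lower. Within the catalytic class the 8 metal-dependent and PHLPP members had a median of -0.12 in LAC against EV, and the 8 PPP-family members -0.0029. By library these medians were -0.21 and 0.024 in LAC replicate 1, -0.061 and -0.058 in replicate 2 and -0.12 and 0.015 in replicate 3, so replicate 2 showed hardly any gap. Low values were found in both families, among them Phlpp2 in the first and Ppp1cb and Ppp3ca in the second. In WTHK2 against EV the medians were -0.11 and -0.036. No test was run on these medians.

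**Figure D2:**
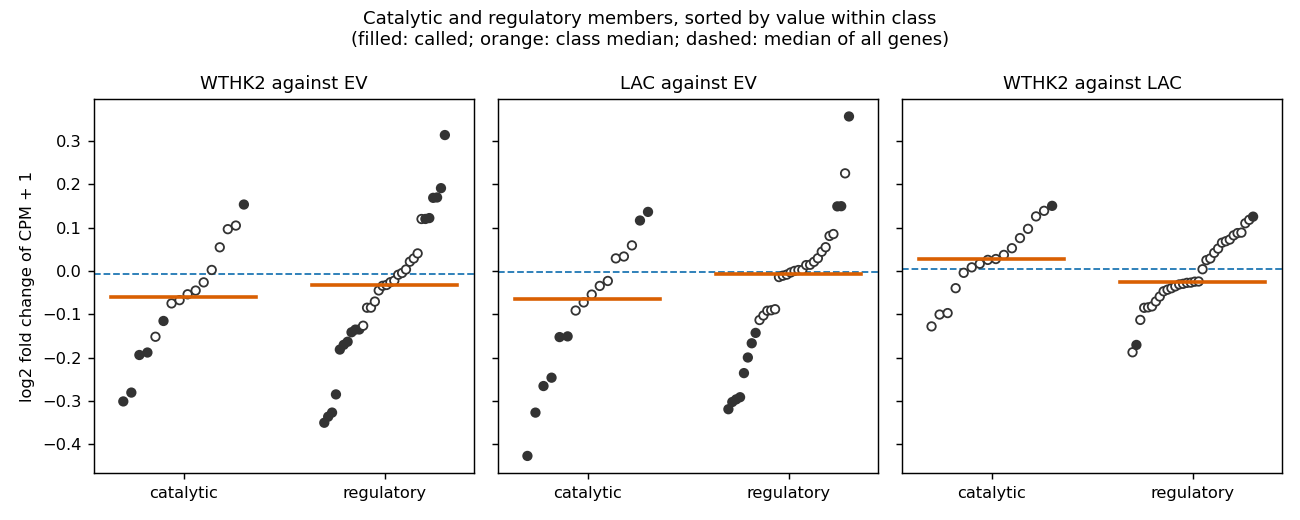
Log2 fold change of CPM plus 1 (vertical axis) of the 16 catalytic and 32 regulatory members in each comparison, sorted within a class, with filled points for called genes, an orange line at the class median and a dashed line at the median of all genes. Both classes scatter across 0, and the catalytic median lies below the regulatory median against EV (-0.061 and -0.033 in WTHK2, -0.064 and -0.0061 in LAC).

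Of the listed PP1 catalytic subunits, Ppp1cb was called and Ppp1ca was not. Ppp1ca, the alpha subunit, stood at 559, 559 and 545 CPM in EV, 498, 545 and 545 in WTHK2 and 579, 553 and 569.9 in LAC. Its values against EV were -0.067 (SE 0.037, adjusted p = 0.143) on the log2 scale in WTHK2 and 0.033 (SE 0.037, adjusted p = 0.476) in LAC, and neither passed. Ppp1cb, the beta subunit, stood at 95.9, 91.0 and 90.1 CPM in EV, 71.0, 88.6 and 84.2 in WTHK2 and 64.9, 79.9 and 76.3 in LAC, with every WTHK2 and LAC library below every EV library. In LAC it fell by 20.3%, or -0.33 (SE 0.075, adjusted p = 0.00129) on the log2 scale, and its call held under every alternative tried. In WTHK2 it was -0.19 (SE 0.075, adjusted p = 0.0443), and that call did not hold without EV replicate 1, 2 or 3, WTHK2 replicate 1, LAC replicate 3 or both first replicates of WTHK2 and LAC, or with median rescaling, quantile normalization, no variance trend or the robust fit (adjusted p from 0.0585 to 0.276). WTHK2 and LAC replicate 1 had the lowest Ppp1cb values of their groups. The coding sequences of PP1 catalytic genes are alike, and how the authors treated reads that map to several places is not given in the sources used here, so the split between these genes is uncertain. The same holds for Ppp2cb, the beta catalytic subunit of PP2A, which stood at 157, 148 and 146 CPM in EV, 145, 151 and 147 in WTHK2 and 149, 142 and 149.5 in LAC and was called in no comparison (log2 fold changes of -0.026 and -0.035 against EV, with 95% intervals of -0.12 to 0.062 and -0.12 to 0.054).

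Calcineurin, the calcium-activated phosphatase that acts on NFAT factors, had lower Ppp3ca. This gene codes for the alpha catalytic subunit and stood at 259, 245 and 236 CPM in EV, 220.4, 237 and 225 in WTHK2 and 204, 214 and 197 in LAC. All LAC libraries were below all others, and the WTHK2 libraries overlapped with EV at their upper end. Ppp3ca fell by 16.8% in LAC, -0.27 (SE 0.044, adjusted p = 6.26e-05), and kept its call under every alternative. The smaller log2 fall in WTHK2 was -0.12 (SE 0.044, adjusted p = 0.0353), and it was lost without EV replicate 1 or 2, WTHK2 replicate 1 or 3 or both first replicates of WTHK2 and LAC, or with median rescaling, quantile normalization or no variance trend (adjusted p from 0.0701 to 0.2). Ppp3cb, the beta catalytic subunit, stood at 108, 106 and 109 CPM in EV, 97.9, 108 and 108 in WTHK2 and 101, 101 and 105 in LAC, with log2 fold changes of -0.045 (adjusted p = 0.46) and -0.073 (adjusted p = 0.216). Ppp3r1, the calcium-binding calcineurin B subunit, was at -0.13 (adjusted p = 0.0608) and -0.091 (adjusted p = 0.168). Neither was called at the main settings. Ppp3r1 was called lower in WTHK2 under 7 alternatives, namely the replicate block, only the 6 libraries of the comparison, and without EV replicate 3, WTHK2 replicate 2, LAC replicate 1 or 2 or both first replicates of WTHK2 and LAC (lowest adjusted p = 0.0251).

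PP4, PP5 and PP6 catalytic transcripts had group means above EV, and some passed the test. Ppp4c stood at 164, 160.3 and 174 CPM in EV, 181, 185 and 189 in WTHK2 and 189, 168 and 183 in LAC. WTHK2 libraries were all above EV, while LAC replicate 2 lay inside the EV range. Its log2 rise was 0.15 (SE 0.046, adjusted p = 0.0102) in WTHK2 and 0.12 (SE 0.046, adjusted p = 0.0416) in LAC. The first was lost without EV replicate 2 (adjusted p = 0.0642), and the second without EV replicate 1 or 2, LAC replicate 1 or 3 or both first replicates of WTHK2 and LAC, or with no variance trend (adjusted p from 0.0912 to 0.196).

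Ppp5c, which codes for a phosphatase with its own protein-binding repeats that associates with HSP90, stood at 87.1, 88.4 and 91.5 CPM in EV, 96.9, 91.6 and 97.2 in WTHK2 and 98.8, 94.3 and 101 in LAC. Both groups were wholly above EV, WTHK2 replicate 2 by the least. It rose in LAC, 0.14 (SE 0.048, adjusted p = 0.0239), and stood at 0.10 (SE 0.048, adjusted p = 0.106) in WTHK2. The LAC call did not hold without EV replicate 1 or 2 or LAC replicate 1 or 3 (adjusted p from 0.0631 to 0.0913). Ppp6c, at 76.7, 81.9 and 80.6 CPM in EV, 84.3, 87.5 and 85.6 in WTHK2 and 84.4, 77.7 and 82.0 in LAC, was not called (log2 0.10, adjusted p = 0.0942, and 0.029, adjusted p = 0.657), though its WTHK2 libraries were all above EV. Under both other scalings Ppp6c was called higher in WTHK2 (lowest adjusted p = 0.0317), as was Ppp5c after median rescaling (adjusted p = 0.0342).

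**Figure D3:**
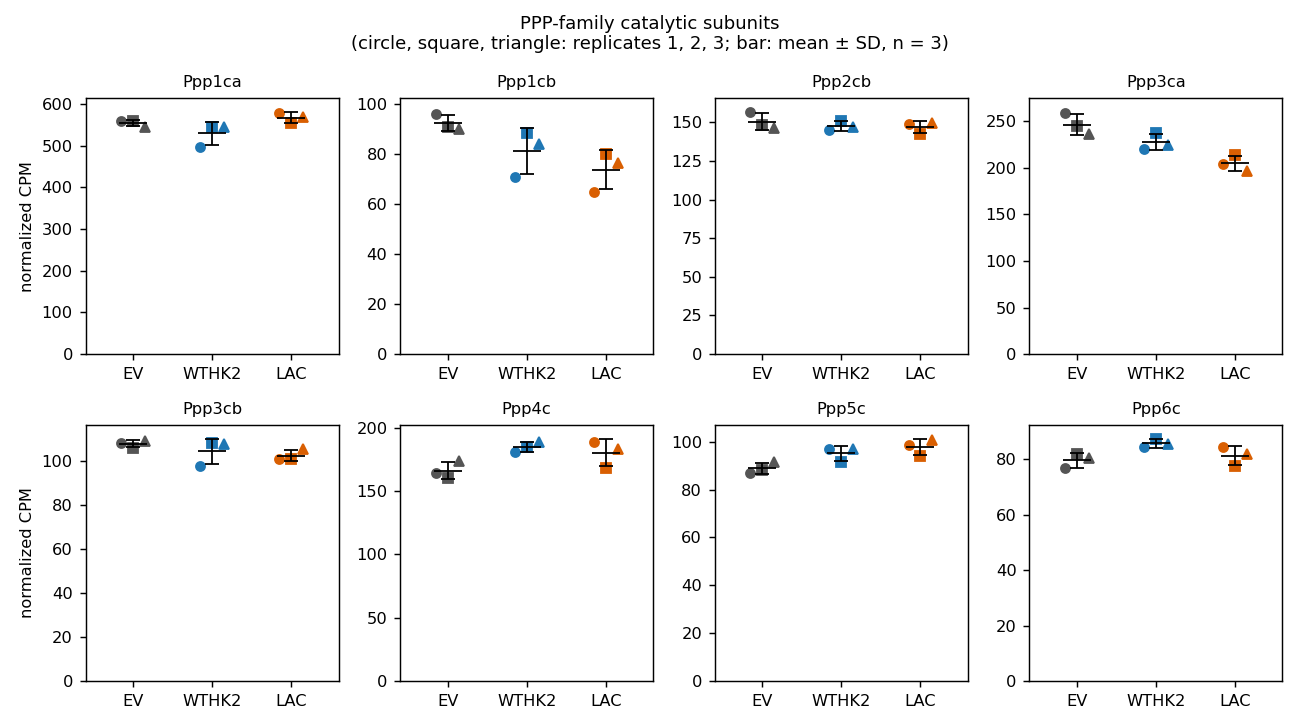
Normalized CPM (vertical axis, from 0) of the 8 PPP-family catalytic subunits in each library, by group, with the mean and SD of 3 libraries. Ppp1cb lies lower in WTHK2 and LAC than in EV, Ppp3ca is lowest in LAC, and Ppp4c and Ppp5c have group means above EV in both other groups.

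Among the Ppm1 and Phlpp members every change called against EV at the main settings was a fall. There were 3 of 8 in WTHK2 (37.5%, beside 46.4% of all genes) and 4 of 8 in LAC (50.0%, beside 49.5%). The shares called are near or below the background. Ilkap, a PP2C enzyme outside the rule that is described below, was called higher in both groups. Under the alternatives Ppm1g was called higher in both groups after median rescaling, and in LAC also without LAC replicate 2 (lowest adjusted p = 0.0269). Ppm1m was called lower in WTHK2 with no variance trend or without WTHK2 replicate 3 (lowest adjusted p = 0.0299). The PHLPP enzymes dephosphorylate the kinase AKT. Phlpp2 stood at 43.9, 46.2 and 41.7 CPM in EV, 33.3, 35.6 and 37.6 in WTHK2 and 33.5, 32.7 and 31.1 in LAC, and the EV libraries lay above all others. It fell by 18.8% in WTHK2, -0.30 (SE 0.069, adjusted p = 0.00149), and fell by 25.6% in LAC, -0.43 (SE 0.069, adjusted p = 5.57e-05), the largest fall of any member against EV in LAC. Both calls held under every alternative. Phlpp1 stood at 48.0, 44.0 and 43.9 CPM in EV, 37.1, 41.7 and 39.8 in WTHK2 and 36.8, 41.7 and 35.9 in LAC, again with no overlap with EV. Its log2 fall was -0.25 (SE 0.072, adjusted p = 0.00756) in LAC and -0.19 (SE 0.072, adjusted p = 0.0318) in WTHK2. The LAC call did not hold without EV replicate 1 (adjusted p = 0.051), and the WTHK2 call without EV replicate 1, WTHK2 replicate 1 or 3 or both first replicates of WTHK2 and LAC, or with median rescaling or quantile normalization (adjusted p from 0.0556 to 0.148).

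Ppm1a, whose enzyme acts on Smad and stress kinase signalling, stood at 70.2, 74.8 and 76.1 CPM in EV, 62.7, 58.0 and 60.8 in WTHK2 and 63.6, 70.4 and 64.7 in LAC. The WTHK2 libraries were all below EV and below LAC, while LAC replicate 2 reached into the EV range. It fell by 17.7% in WTHK2, -0.28 (SE 0.057, adjusted p = 5.46e-04), a call that held under every alternative. In LAC the log2 fall was -0.15 (SE 0.057, adjusted p = 0.0325), lost without EV replicate 2 or 3, LAC replicate 1 or 3 or both first replicates of WTHK2 and LAC, or with median rescaling or quantile normalization (adjusted p from 0.0927 to 0.122). Its close relative Ppm1b was not called, at 0.0022 and -0.023. Ppm1f, at -0.15 (adjusted p = 0.0274), was called lower in LAC, a call lost without EV replicate 1, LAC replicate 1 or both first replicates of WTHK2 and LAC, or with median rescaling or no variance trend (adjusted p from 0.058 to 0.214). Ppm1d, a phosphatase induced by p53, Ppm1g, a nuclear enzyme linked to splicing, and Ppm1m were called in neither comparison, with log2 values between -0.15 and 0.059.

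PP2A is a complex of a scaffold, a catalytic and a regulatory B subunit, and 8 of its subunits of the first and last kind were listed. None was called higher against EV at the main settings. Ppp2r2a was called higher in LAC under both other scalings (lowest adjusted p = 0.0158). Ppp2r2d was called higher in WTHK2 under 7 alternatives, namely both other scalings, the replicate block, voom, and without EV replicate 3, WTHK2 replicate 1 or both first replicates of WTHK2 and LAC (lowest adjusted p = 0.015). Ppp2r1b, the beta scaffold, stood at 163, 172 and 163 CPM in EV, 135, 155 and 150.1 in WTHK2 and 128, 143 and 136 in LAC, with EV above both groups. It fell by 18.3% in LAC, -0.29 (SE 0.052, adjusted p = 1.35e-04), and fell by 11.8% in WTHK2, -0.18 (SE 0.052, adjusted p = 0.00726), and kept both calls under every alternative.

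Ppp2r3a, a calcium-binding B subunit, had the largest fall of any member in WTHK2. It stood at 33.2, 38.0 and 36.8 CPM in EV, 27.9, 27.6 and 28.5 in WTHK2 and 28.4, 31.6 and 26.2 in LAC, and EV did not overlap with either group. The log2 fold changes were -0.35 (SE 0.078, adjusted p = 0.00121) and -0.32 (SE 0.078, adjusted p = 0.00231), so it fell by 21.5% in WTHK2 and fell by 19.8% in LAC, under every alternative.

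The B56 subunits, which direct PP2A to substrates with a short binding motif, were called for 2 of 4 listed genes in WTHK2 and 1 of 4 in LAC. Of all genes 46.4% and 49.5% were called. Ppp2r5e stood at 51.1, 54.0 and 52.7 CPM in EV, 35.3, 43.3 and 47.6 in WTHK2 and 40.1, 44.9 and 42.5 in LAC. It was lower in all WTHK2 and LAC libraries than in EV and lowest in WTHK2 replicate 1. Its log2 falls of -0.33 (SE 0.082, adjusted p = 0.00298) and -0.30 (SE 0.082, adjusted p = 0.0048) held under every alternative. Ppp2r5a and Ppp2r5c were called in neither comparison, with log2 values from -0.085 to 0.013, although Ppp2r5c was called lower in WTHK2 without WTHK2 replicate 2 (adjusted p = 0.0389).

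Ppp2r5b stood at 68.1, 70.3 and 70.7 CPM in EV, 60.2, 66.4 and 62.9 in WTHK2 and 73.3, 71.4 and 68.9 in LAC, lower in WTHK2 than in EV or LAC. Against EV it stood at a log2 value of -0.14 (SE 0.054, adjusted p = 0.0369) in WTHK2 and 0.029 (SE 0.054, adjusted p = 0.675) in LAC. The WTHK2 call did not hold without EV replicate 1, 2 or 3, WTHK2 replicate 1 or 3 or both first replicates of WTHK2 and LAC, or with median rescaling or quantile normalization (adjusted p from 0.0536 to 0.144). The B55 subunits Ppp2r2a and Ppp2r2d, which serve mitotic exit, were not called at the main settings (log2 -0.032 and 0.12 in WTHK2, 0.081 and 0.055 in LAC).

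Of the enzymes that act on PP2A, Ptpa, which codes for its activator, stood at 99.6, 99.8 and 99.9 CPM in EV, 84.1, 90.9 and 93.1 in WTHK2 and 79.7, 81.4 and 88.8 in LAC. The EV libraries lay within 1 CPM of each other and above all others. Ptpa fell by 16.4% in LAC, -0.26 (SE 0.053, adjusted p = 4.84e-04), under every alternative. In WTHK2 the log2 fall was -0.16 (SE 0.053, adjusted p = 0.0186), lost without EV replicate 1 or 2, WTHK2 replicate 1 or both first replicates of WTHK2 and LAC, or with median rescaling (adjusted p from 0.0506 to 0.0957). Ppme1, the methylesterase that removes a methyl group from the PP2A catalytic subunit, was not called (0.056 and -0.035).

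PP1 regulatory subunits were the largest class, with 16 listed members. In WTHK2 5 were higher and 3 lower (50.0% called, beside 46.4% of all genes). In LAC 2 were higher and 3 lower (31.25%, beside 49.5%). The lower genes included Ppp1r13b, which codes for ASPP1, a partner of p53 and PP1. It stood at 52.9, 48.2 and 48.4 CPM in EV, 37.8, 39.2 and 40.7 in WTHK2 and 41.0, 41.1 and 39.0 in LAC, with EV above both groups, and fell by 20.8% in WTHK2, -0.34 (SE 0.064, adjusted p = 2.71e-04), and fell by 18.6% in LAC, -0.30 (SE 0.064, adjusted p = 7.76e-04). Both calls held under every alternative. The related Ppp1r13l (iASPP) was not called (-0.045 and 0.014).

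Ppp1r12a codes for MYPT1, the subunit that directs PP1 to myosin. It stood at 183, 172 and 167 CPM in EV, 159, 161 and 145 in WTHK2 and 144, 158 and 141 in LAC, and both groups were below EV. The log2 fall of -0.24 (SE 0.051, adjusted p = 8.80e-04) in LAC held under every alternative. That of -0.16 (SE 0.051, adjusted p = 0.0134) in WTHK2 was lost without EV replicate 1 or WTHK2 replicate 3 (adjusted p from 0.0912 to 0.093). Ppp1r15b, the constitutive subunit that directs PP1 to the translation factor eIF2 alpha, was called lower in both, at -0.17 (SE 0.053, adjusted p = 0.0123) in WTHK2 and -0.14 (SE 0.053, adjusted p = 0.0301) in LAC. The first was lost without EV replicate 1 or 2 (adjusted p from 0.0532 to 0.0701), and the second without EV replicate 1 or 2, LAC replicate 1 or 3 or both first replicates of WTHK2 and LAC, or with median rescaling or quantile normalization (adjusted p from 0.0505 to 0.132).

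The higher PP1 subunits included Ppp1r16a, a membrane-anchored relative of MYPT1. It stood at 68.3, 60.7 and 67.2 CPM in EV, 79.7, 72.3 and 68.9 in WTHK2 and 91.2, 77.4 and 83.6 in LAC, and both groups were wholly above EV. In LAC it rose by 28.0%, 0.36 (SE 0.066, adjusted p = 2.14e-04), the largest rise of any member in that comparison, under every alternative. In WTHK2 the log2 rise was 0.17 (SE 0.066, adjusted p = 0.0429), lost without EV replicate 2 or 3, WTHK2 replicate 1 or 2, LAC replicate 3 or both first replicates of WTHK2 and LAC, or with no variance trend (adjusted p from 0.0564 to 0.215).

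Ppp1r9b codes for spinophilin, a scaffold that binds actin and PP1. It stood at 235, 229 and 237 CPM in EV, 271, 249.5 and 268 in WTHK2 and 244, 234 and 244 in LAC. The WTHK2 libraries were above all others, and the LAC libraries overlapped with EV. Its log2 rise in WTHK2 was 0.17 (SE 0.039, adjusted p = 0.00166) and held under every alternative, and in LAC it stood at 0.044 (SE 0.039, adjusted p = 0.364). Ppp1r36 was at 81.5, 71.6 and 77.7 CPM in EV, 89.2, 90.1 and 84.4 in WTHK2 and 85.3, 81.6 and 89.2 in LAC, above EV in both groups, with log2 rises of 0.19 (SE 0.055, adjusted p = 0.0082) and 0.15 (SE 0.055, adjusted p = 0.0308). The WTHK2 call did not hold without EV replicate 2 (adjusted p = 0.0689), and the LAC call without EV replicate 2 or 3 or LAC replicate 1 or 3 (adjusted p from 0.0549 to 0.188).

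Ppp1r37 had the largest rise in WTHK2. It stood at 21.7, 20.2 and 22.6 CPM in EV, 30.7, 26.0 and 24.5 in WTHK2 and 28.1, 27.8 and 20.7 in LAC, with LAC replicate 3 inside the EV range, and its log2 fold changes were 0.31 (SE 0.1, adjusted p = 0.019) and 0.22 (SE 0.1, adjusted p = 0.0799). The WTHK2 call did not hold without EV replicate 1 or 2, WTHK2 replicate 1 or both first replicates of WTHK2 and LAC (adjusted p from 0.0504 to 0.101). Ppp1r2, the classical inhibitor-2, stood at 108, 113 and 114 CPM in EV, 117, 126 and 122 in WTHK2 and 108, 113 and 116 in LAC. It was called higher in WTHK2, 0.12 (SE 0.046, adjusted p = 0.0386), beside 0.002 (SE 0.046, adjusted p = 0.976) in LAC, and that call did not hold without EV replicate 1, 2 or 3 or WTHK2 replicate 2 or 3, or with no variance trend (adjusted p from 0.0547 to 0.153). The difference between WTHK2 and LAC did not pass (adjusted p = 0.0892), but did with the replicate block and without WTHK2 replicate 1 (lowest adjusted p = 0.0448). Ppp1r37 was called higher in LAC after median rescaling, with the replicate block or without LAC replicate 3 (lowest adjusted p = 0.00709). The other 8 PP1 subunits were called in neither comparison. They were Ppp1r8 and Ppp1r10, nuclear subunits known as NIPP1 and PNUTS, Ppp1r11 (inhibitor-3), Ppp1r12c, Ppp1r13l, Ppp1r18, Ppp1r21 and Ppp1r3f. Their log2 values ran from -0.11 to 0.085, and Ppp1r11 was called higher in LAC after median rescaling (adjusted p = 0.0387).

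PP6 regulatory subunits, which share a SAPS domain, were called in opposite directions. Ppp6r3 stood at 188, 180.0 and 180.3 CPM in EV, 146, 153 and 150.0 in WTHK2 and 156, 166 and 156 in LAC, and EV was above both groups. It fell by 17.9% in WTHK2, -0.28 (SE 0.041, adjusted p = 1.80e-05), and fell by 12.9% in LAC, -0.20 (SE 0.041, adjusted p = 5.63e-04), under every alternative. Its WTHK2 call had the smallest adjusted p of any member in that comparison. Ppp6r1 stood at 138, 128 and 130.2 CPM in EV, 143, 142 and 146 in WTHK2 and 145, 141 and 152 in LAC, above EV in all 6 libraries. Its log2 rises were 0.12 (SE 0.044, adjusted p = 0.0287) and 0.15 (SE 0.044, adjusted p = 0.00844). They were lost without EV replicate 2 or 3 or WTHK2 replicate 3, or with no variance trend (adjusted p from 0.0545 to 0.128) in WTHK2, and without EV replicate 2 or LAC replicate 3 (adjusted p from 0.0526 to 0.0545) in LAC. Ppp6r2 was not called (-0.034 and -0.10).

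Of the 4 PP4 regulatory subunits none was called higher against EV under any of the 3 scalings. Ppp4r1, a scaffold-like subunit, was called lower in LAC at -0.17 (SE 0.037, adjusted p = 0.00108) under every alternative, with a value of -0.085 (adjusted p = 0.0673) in WTHK2, where it was called without WTHK2 replicate 3 (adjusted p = 0.0494). Ppp4r3b was called lower in WTHK2 at -0.14 (SE 0.039, adjusted p = 0.0083) under every alternative, with -0.088 (adjusted p = 0.0683) in LAC. Ppp4r2 was at -0.14 (SE 0.054, adjusted p = 0.0468) in WTHK2, a call lost without EV replicate 1, 2 or 3, WTHK2 replicate 1 or 2 or both first replicates of WTHK2 and LAC, or with median rescaling, quantile normalization or no variance trend (adjusted p from 0.0525 to 0.198). Ppp4r3a was called in neither (-0.0089 and 0.021).

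**Figure D4:**
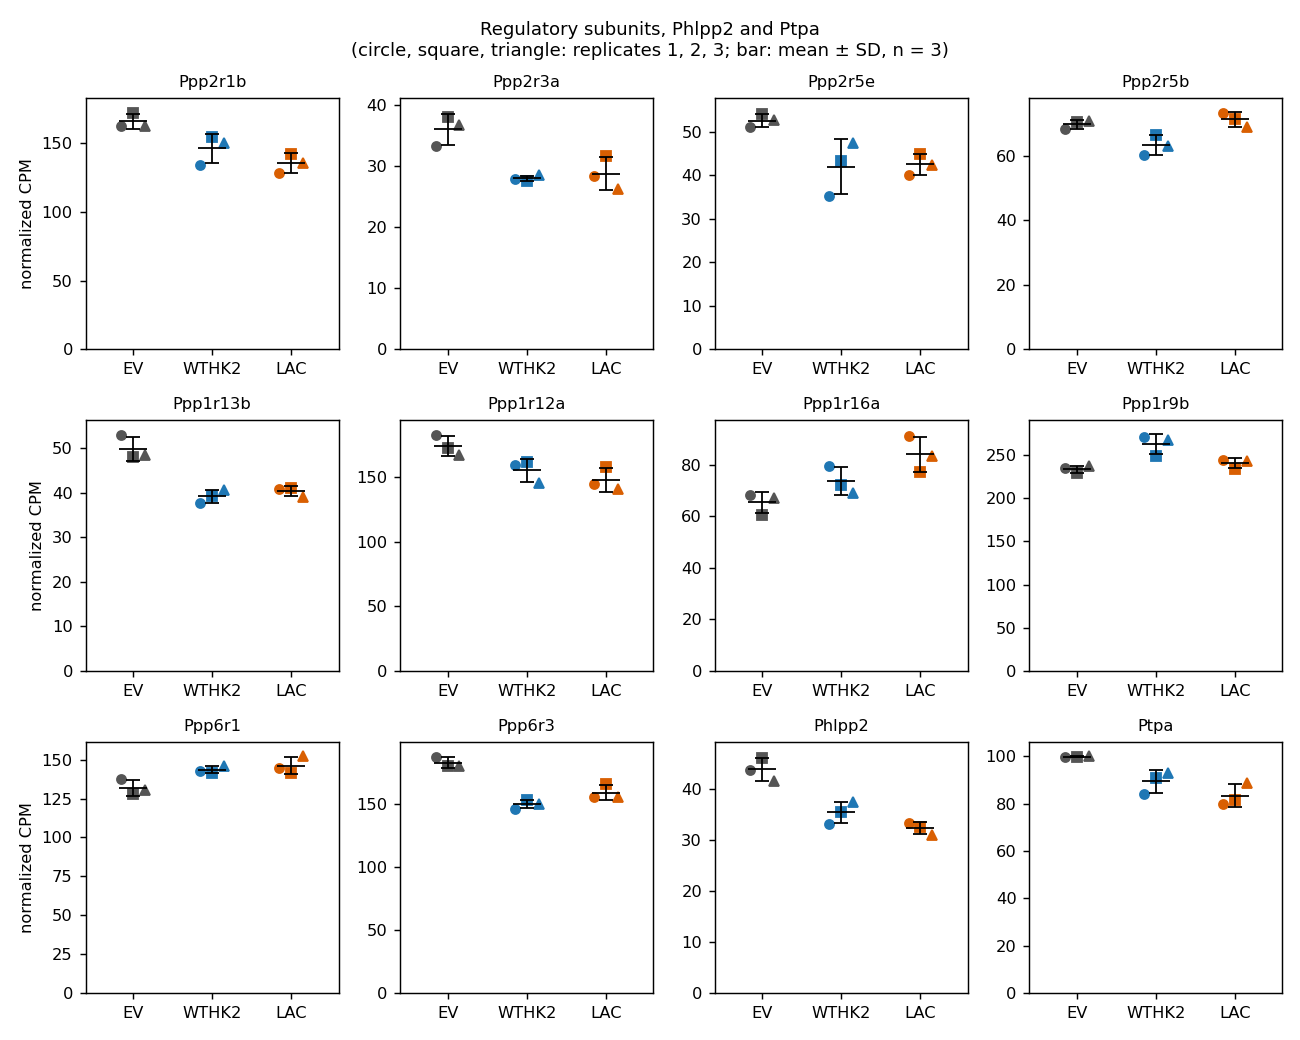
Normalized CPM (vertical axis, from 0) of 10 regulatory members, Phlpp2 and Ptpa in each library, by group, with the mean and SD of 3 libraries. Ppp2r1b, Ppp2r3a, Ppp2r5e, Ppp1r13b, Ppp1r12a, Ppp6r3, Phlpp2 and Ptpa lie below EV in both other groups, Ppp1r16a and Ppp6r1 lie above it, and Ppp1r9b is high in WTHK2 and Ppp2r5b low there.

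Ratios of CPM between related members within a library do not depend on how libraries were scaled to each other. They were computed for 17 pairs of listed paralogues in the 3 comparisons. With 3 libraries a group the exact two-sided permutation test cannot give a p under 0.1, and the smallest value adjusted over the 51 tests was 0.232, so the ratios are given as values. A ratio shows only how a pair shifts between libraries, not which gene is more abundant. Ppp6r1 over Ppp6r3 gave ratios of 0.732, 0.710 and 0.722 in EV, 0.977, 0.925 and 0.972 in WTHK2 and 0.931, 0.854 and 0.979 in LAC. The EV ratios were below all others. The ratio of Ppp1ca to Ppp1cb was 5.83, 6.14 and 6.05 in EV, 7.02, 6.16 and 6.48 in WTHK2 and 8.93, 6.93 and 7.47 in LAC, lowest in EV and highest in LAC replicate 1. The ratio of Ppp3ca to Ppp3cb was 2.39, 2.31 and 2.16 in EV, 2.25, 2.19 and 2.09 in WTHK2 and 2.02, 2.12 and 1.87 in LAC, with LAC below EV and WTHK2 overlapping both.

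The ratio of Ppp1r13b to Ppp1r13l was 1.49, 1.57 and 1.49 in EV, 1.20, 1.16 and 1.34 in WTHK2 and 1.24, 1.21 and 1.20 in LAC, and EV lay above both groups. For Ppm1a over Ppm1b the ratios were 1.54, 1.58 and 1.54 in EV, 1.25, 1.31 and 1.26 in WTHK2 and 1.33, 1.55 and 1.38 in LAC. WTHK2 lay below all other libraries, and LAC overlapped with EV. Ppp2r5c over Ppp2r5e gave 3.04, 2.76 and 2.95 in EV, 3.91, 3.53 and 3.01 in WTHK2 and 3.72, 3.45 and 3.57 in LAC, with LAC above EV and WTHK2 replicate 3 inside the EV range. All 17 pairs, and the 6 given here, were chosen after member values were seen.

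**Figure D5:**
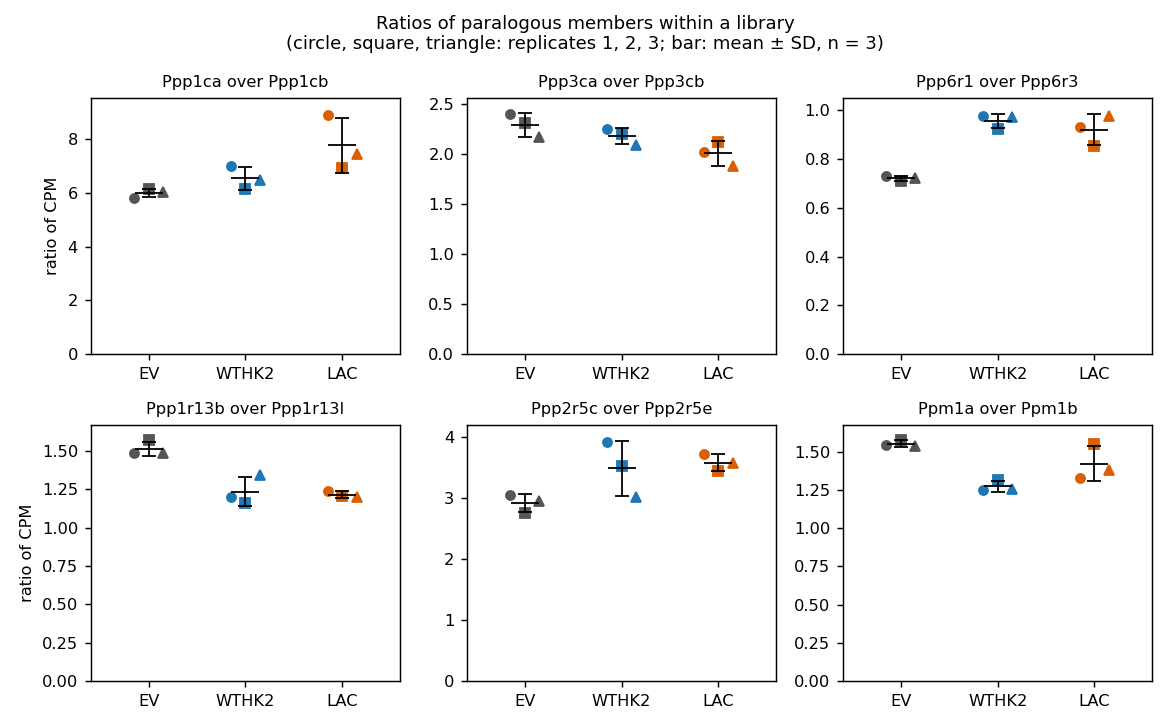
Ratio of CPM between paralogous members (vertical axis, from 0) in each library, by group, with the mean and SD of 3 libraries. The Ppp6r1 to Ppp6r3 ratio is 0.710 to 0.732 in EV and 0.854 to 0.979 in the other 6 libraries, and the Ppp1ca to Ppp1cb ratio is highest in LAC replicate 1 (8.93).

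The WTHK2 and LAC groups differed little in these genes. In WTHK2 against LAC, 2 members were higher and 1 lower, so 3 of 50 (6%) were called beside 16.1% of all genes (8.37% higher and 7.76% lower). Groups did not overlap for 10 members (20.0%) beside 29.0% of all genes, and 10 members had an unadjusted p under 0.05. The count was 1 without LAC replicate 1 or 3, 6 without WTHK2 replicate 1, 0 without WTHK2 replicate 3 (limma, with 6 members at an unadjusted p under 0.05), and 1 with replicate 1 of both groups left out. In that order, 12.2%, 10.4%, 18.9%, 9.80% and 16.3% of all genes were called in these fits. Ppp3ca was higher in WTHK2, 0.15 (SE 0.044, adjusted p = 0.0216), with no overlap, a call lost without WTHK2 replicate 2 or 3 or LAC replicate 1 or 3, or with no variance trend (adjusted p from 0.0513 to 0.12). Ppp1r9b was higher, 0.13 (SE 0.039, adjusted p = 0.0339), and that call did not hold without EV replicate 1, WTHK2 replicate 1 or 3, LAC replicate 2 or 3 or both first replicates of WTHK2 and LAC, or with median rescaling, only the 6 libraries of the comparison or no variance trend (adjusted p from 0.0509 to 0.132). Ppp2r5b was lower, -0.17 (SE 0.054, adjusted p = 0.0344), and was lost without WTHK2 replicate 1 or 3, LAC replicate 1 or 2 or both first replicates of WTHK2 and LAC, or with only the 6 libraries of the comparison (adjusted p from 0.0551 to 0.228).

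This comparison is also the test of whether a member's change against EV differed between WTHK2 and LAC. For Ppp1cb the difference was 0.14 (SE 0.075, adjusted p = 0.228), for Phlpp2 0.13 (SE 0.069, adjusted p = 0.239), and for Ppp1r16a -0.19 (SE 0.066, adjusted p = 0.0584). None of these passed at the main settings, although each had a larger value against EV in LAC. Ppp1r16a passed with the replicate block, with voom, and without WTHK2 replicate 1 or LAC replicate 2 (lowest adjusted p = 0.00997), and Ppp1cb without WTHK2 replicate 1 (adjusted p = 0.0187). The block called 7 members, adding Ppp1r16a, Ppp1r2, Ppp1ca and Ppp2r2a to the 3 above. Ppp1ca was also called without LAC replicate 2, Ppp2r2a after median rescaling and without WTHK2 replicate 1 or LAC replicate 2, and Ppp2r1b without WTHK2 replicate 1. The 95% intervals of the log2 difference were -0.017 to 0.29, -0.018 to 0.27 and -0.33 to -0.05 in that order. The last interval, which is not adjusted for the number of genes, lay below 0. The difference of medians between catalytic and regulatory members was 0.052 (0.026 and -0.026), with an SD of 0.036 over WTHK2 libraries. It was 0.0034 without LAC replicate 2. For the remaining PPP catalytic subunits the log2 differences ran from -0.10 (Ppp1ca, adjusted p = 0.0716) to 0.076 (Ppp6c, adjusted p = 0.341).

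Proteins that bind or inhibit these phosphatases were counted from a separate list of 59 genes, of which 39 were listed. In WTHK2 against EV 4 were higher and 17 lower (median -0.11), and in LAC 5 and 17 (median -0.089). Of all genes 21.0% were higher and 25.4% lower in WTHK2, and 22.4% and 27.1% in LAC. After median rescaling the list's counts were 4 and 13, and 5 and 13. Ankrd52, an ankyrin-repeat scaffold of PP6, stood at 70.6, 71.9 and 66.8 CPM in EV, 34.9, 43.1 and 49.1 in WTHK2 and 35.0, 51.6 and 39.9 in LAC. Its log2 falls were -0.72 (SE 0.11, adjusted p = 2.99e-05) and -0.73 (SE 0.11, adjusted p = 2.49e-05), larger in size than that of any member. Nom1, which brings PP1 to the nucleolus, was at -0.49 (adjusted p = 1.21e-06) and -0.50 (adjusted p = 1.64e-06). Akap11, an anchoring protein for PP1 and protein kinase A, fell with log2 values of -0.43 (adjusted p = 2.97e-06) and -0.38 (adjusted p = 1.57e-05). Cttnbp2nl, of the striatin complexes of PP2A, was lower in both, -0.39 (SE 0.061, adjusted p = 3.52e-05) in WTHK2 and -0.24 (SE 0.061, adjusted p = 0.00327) in LAC. Wdr82, a partner of PNUTS and PP1, was lower in both, -0.38 (SE 0.069, adjusted p = 1.89e-04) in WTHK2 and -0.49 (SE 0.069, adjusted p = 1.42e-05) in LAC.

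Serine/threonine phosphatases outside the rule formed a list of 17 genes, of which 10 were listed. In WTHK2 4 were higher and 2 lower, and in LAC 2 were higher and 3 lower, beside 46.4% and 49.5% of all genes called, so these shares are close to the background. After median rescaling 4 were higher and 1 lower in WTHK2, and 3 each in LAC. Ilkap, a PP2C enzyme that acts on integrin-linked kinase signalling, rose in both, by 0.23 (SE 0.048, adjusted p = 5.28e-04) and 0.25 (SE 0.048, adjusted p = 3.03e-04). Pgam5, a mitochondrial phosphatase, was lower in both, at -0.21 (SE 0.07, adjusted p = 0.0209) and -0.26 (SE 0.07, adjusted p = 0.00424), the first lost without EV replicate 1 or 2, WTHK2 replicate 1 or both first replicates of WTHK2 and LAC (adjusted p from 0.0592 to 0.161). Of the small phosphatases of the RNA polymerase II tail, Ctdspl was higher in WTHK2 (0.25, adjusted p = 0.00698) and stood at -0.12 in LAC (adjusted p = 0.161). Ctdsp1 stood at -0.11 in WTHK2 (adjusted p = 0.0963) and was lower in LAC (-0.22, adjusted p = 0.00202). Ctdsp2 was lower in both, at -0.12 (adjusted p = 0.045) and -0.23 (adjusted p = 8.28e-04). Its WTHK2 call was lost with median rescaling and with quantile normalization, and the other alternatives are not given for that call. Ssu72, which also acts on that tail, stood at 21.0, 19.2 and 25.9 CPM in EV, 45.9, 46.7 and 45.1 in WTHK2 and 23.0, 23.5 and 24.4 in LAC. It differed between WTHK2 and LAC by a log2 value of 0.93 (adjusted p = 2.32e-07), beyond the range of any member. The LAC libraries lay inside the EV range.

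Gene order on the RefSeq assembly CriGri-PICRH-1.0, matched by symbol, placed 46 members, and 45 had 7 listed genes on either side. It served to name neighbours and to take the median of their log2 fold changes. No fixed rule chose the members given here. For Ppp6r1 the median log2 fold change of its 14 neighbours was 0.21 in WTHK2 and 0.20 in LAC, beside its own 0.12 and 0.15. Its neighbours include Ppp1r12c, which was not called (-0.023 and 0.0023), while the 14 neighbours of Ppp1r12c had medians of 0.22 and 0.25. Those of Ppp1r18, which was not called either, had medians of 0.18 and 0.099 beside its own 0.040 and -0.011. For Ppp4r1 the medians were -0.15 and -0.22 beside -0.085 and -0.17, and for Ppp1r16a 0.11 and 0.17 beside 0.17 and 0.36. In contrast, the neighbours of Ppp6r3 had medians of -0.0015 and 0.034, those of Phlpp2 -0.032 and -0.06, and those of Ppp1r13b 0.0086 and 0.0096. Ppp2r5e has both Ppm1a and Ppp1r36 among its 14 neighbours, of which the first was lower and the second higher in both comparisons. The part of neighbourhood in these values was not tested.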

How the data were processed

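RNA was sequenced from 9 libraries of MI5-4 CHO cells, 3 each of EV, WTHK2 and LAC. Per the submitters' processing notes the authors used STAR 2.7.0a, FastQC 0.11.8, featureCounts 2.0.1, edgeR 3.8 and cutadapt 1.18. The sources used here do not state build, annotation or strand setting. The authors deposited normalized CPM for 6753 genes. Every value was a whole multiple of a step per library (100% within a tolerance of 0.01), which gave effective library sizes of 18050959 to 26238659 reads.

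The analysis scale was log2(CPM + 1), which slightly understates the change of low genes. A filter at a mean of 1 CPM removed 0 genes. All 9 libraries entered a limma fit (version 3.58.1, R 4.3.3) that used a variance trend and had no covariates. Tests were two-sided, with Benjamini-Hochberg adjustment over all genes and a threshold of 0.05. The fit was also run on simulated data with independent noise and far fewer changed genes than were called against EV. That run differs from these data and is not used as support, and its pass limit was lowered after an outcome was seen. Ratios, medians and figures were made with Python 3.11.15, pandas 2.3.3, numpy 2.4.6, scipy 1.17.1 and matplotlib 3.10.9.

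Genes given with values were the PPP catalytic subunits, up to 8 called, non-overlapping rises and falls against EV and up to 5 between WTHK2 and LAC, and up to 4 called genes per partner list; members outside this rule (among them Ppp1r12a, Ppp1r15b, Ppp4r1, Ppp4r2, Ppp4r3b and Ppm1f) were named to account for all 50. The members, lists and paralogue pairs were chosen with earlier results of these data known. Alternatives were other pseudocounts, filters, scalings, fits and thresholds, and each library left out in turn; voom on recovered reads and the fit that left out replicate 1 of WTHK2 and LAC were added after the data were seen.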

Additional observations from a re-analysis of the deposited data

How the results depend on the processing

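Over 22 alternatives 0 called member changed direction. Of the 23 members called in WTHK2 against EV, 9 were called under every alternative, as were 12 of 20 in LAC against EV and 0 of 3 in WTHK2 against LAC. Of the members not called, 8, 4 and 6 were called under at least 1 alternative in these comparisons. At an adjusted p of 0.01 by limma, 10 members (20.0%) passed in WTHK2 against EV, 14 (28.0%) in LAC against EV and 0 in WTHK2 against LAC. Of all genes 31.8%, 35.1% and 8.01% passed. In WTHK2 against LAC 10 members had an unadjusted p under 0.05 by limma, and voom called 4 at an adjusted p of 0.05. Members called in WTHK2 against LAC were 1 in a fit of only its 6 libraries, 1 with no variance trend and 1 with replicate 1 of WTHK2 and LAC left out. Of all genes 12.3%, 13.0% and 16.3% were called there. Leaving out each library gave 11 to 24 members in WTHK2 against EV, 14 to 21 in LAC against EV and 0 to 6 in WTHK2 against LAC. The share of all genes called ran from 36.2% to 48.7%, from 39.2% to 52.0% and from 9.80% to 18.9% in these fits. Over the same fits the catalytic minus regulatory median ranged from -0.059 to 0.0064, from -0.084 to -0.035 and from 0.0034 to 0.057. It was -0.036 in LAC against EV with replicate 1 of WTHK2 and LAC left out. The causes were not tested; fits with fewer libraries have fewer samples.

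Whether replicate numbers pair the libraries was not settled by the check used, and the main fit left them out. Same-numbered libraries of WTHK2 and LAC deviated together with correlations of 0.073 to 0.44, and differently numbered ones with -0.33 to 0.19. Those of EV with WTHK2 gave -0.0057 to 0.14 for the same number and -0.20 to 0.13 for different numbers. For EV with LAC the values were 0.017 to 0.21 and -0.20 to 0.18. With the replicate block, 25 members were called in WTHK2 against EV, 21 in LAC against EV and 7 (3 higher, 4 lower) in WTHK2 against LAC. The block called 50.8%, 53.4% and 20.9% of all genes. In these comparisons 3, 4 and 5 of 6 libraries correlated best with their own number. The planned edgeR and DESeq2 fits were not run, since the check of the deposited units did not accept recovered reads as counts. With voom on recovered reads 24, 20 and 4 members were called, beside 47.3%, 49.7% and 16.2% of all genes. Both filters left the same genes as the main fit. No listed gene has a mean under 20.4 CPM, and lower genes were not analysed here.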
